A study of Rattus norvegicus with 6 samples.

Results

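The miR-23/27/24 clusters are a pair of short stretches of the rat genome, each of which carries the hairpin genes of a miR-23, a miR-27 and a miR-24. The 8 mature miRNAs described here were selected by their names from the 493 mature miRNAs counted in the series, at a time when earlier results of these data were known. They are rno-miR-23a-3p, rno-miR-23b-3p, rno-miR-24-3p, rno-miR-24-1-5p, rno-miR-24-2-5p, rno-miR-27a-3p, rno-miR-27b-3p and rno-miR-27b-5p, where rno stands for the rat and is left out from here on. All 8 were in the table and all 8 passed the filter on low counts, as did 452 miRNAs in all. The other arms of the same hairpins in the table, miR-23b-5p and miR-27a-5p, are given beside them.

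Sequencing was done on small RNA of male Sprague-Dawley rats, taken from the peri-infarct cortex, with 3 libraries of the MCAO group and 3 of the MCAO + rTMS group. In every rat the right middle cerebral artery was closed for 90 min and then reopened, which is the MCAO model of ischemic stroke. The MCAO rats had no further treatment, and their cortex was taken 7 days later. The MCAO + rTMS rats received rTMS, in which magnetic pulses are given through a coil over the head, at 10 Hz for 10 min a day over 7 days in a row as labelled, while the study's methods describe short trains with rests between them, begun a day after reperfusion. The labels do not give the day on which the cortex of the MCAO + rTMS rats was taken. The study's list of miRNAs that differed between the groups is headed as 7 days after modeling. The age of the rats was not given in the sources used here, and sham-operated cortex was not analysed here. The question was which miRNAs rTMS treatment changed after MCAO.

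A miRNA is cut from a hairpin precursor, and either strand, the 5p arm or the 3p arm, can be loaded onto an Argonaute protein, where bases 2 to 8 of the miRNA, the seed, pair with target mRNAs. In the miR-23/27/24 clusters the 3p arms are the usual guide strands and the 5p arms are the less abundant partners. The clusters are known from endothelial cells and angiogenesis, from lipid metabolism, and from the control of apoptosis, and miR-23 has been described in astrocytes. In these cortex samples RNA of all cell types was pooled, so fewer cells of a type and less of a miRNA per cell cannot be told apart.

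The mature sequences, from RefSeq on the GRCr8 assembly, are shown because the a and b copies of the miR-23 and miR-27 guides are so alike that their reads can be told apart only near the 3′ end. The a cluster lies on chromosome 19 in the order Mir23a, Mir27a and Mir24-2, over 389 bases, and the b cluster on chromosome 17 in the order Mir23b, Mir27b and Mir24-1, over 814 bases. Both are on the minus strand. Capitals mark the seed. The 3p arms, with the guide sequences, are as follows.
rno-miR-23a-3p: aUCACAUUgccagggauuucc
rno-miR-23b-3p: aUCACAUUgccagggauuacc
rno-miR-27a-3p: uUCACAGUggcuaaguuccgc
rno-miR-27b-3p: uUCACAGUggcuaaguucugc
rno-miR-24-3p: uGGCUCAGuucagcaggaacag
The 5p arms share no seed with them.
rno-miR-24-1-5p: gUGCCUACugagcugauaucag
rno-miR-24-2-5p: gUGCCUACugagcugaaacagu
rno-miR-27b-5p: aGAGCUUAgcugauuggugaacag
rno-miR-27a-5p: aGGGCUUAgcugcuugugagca
rno-miR-23b-5p: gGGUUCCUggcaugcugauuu

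The members therefore fall into seed groups that join the a and b clusters. miR-23a-3p and miR-23b-3p share a seed and differ by U19A alone, and miR-27a-3p and miR-27b-3p share a seed and differ by C19U alone, where the base of the a copy comes first and base 1 is the 5′ end. miR-24-3p is made by both clusters with the same sequence, so its reads cannot be assigned to either. The miR-24 5p arms share bases 1 to 16 and then diverge, so they mark the b cluster (miR-24-1-5p) and the a cluster (miR-24-2-5p) separately. No other rat miRNA in the reference table carries any of these 3p seeds. Bases 2 to 9 of miR-27 also occur as bases 1 to 8 of miR-128-3p, the most abundant miRNA of the table, and its seed is therefore shifted by 1 base against that of miR-27.

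Total counts lay between 10492610 and 15411620 per library, and the 10 most abundant miRNAs took 67.7% to 77.0% of them. Library totals were scaled with TMM factors, and levels are given as CPM of the scaled total. The scaling moved the median log2 fold change of all miRNAs tested. It was -0.21 with TMM factors, -0.50 with upper-quartile factors and -0.80 with library totals only. Changes are therefore also given after subtraction of that median. Another scaling shifts all miRNAs by nearly the same amount, so values relative to the median nearly agree between scalings by construction. In MCAO + rTMS replicate 3, which had the lowest TMM factor (0.695), several ratios between members stood apart from those of the other MCAO + rTMS libraries, and values without it are given where they changed a result. The neuronal miR-124-3p, miR-128-3p, miR-132-3p, miR-137-3p and miR-138-5p were detected in all 6 libraries, which fits brain tissue.

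With rTMS, miR-24-3p and its partner from the a cluster, miR-24-2-5p, were lower, and miR-27b-5p was higher. These 3 of the 8 members passed an adjusted p of 0.05 in the quasi-likelihood test of edgeR with Benjamini-Hochberg adjustment, 2 of them lower and 1 higher in the MCAO + rTMS group. Of all 452 miRNAs tested, 55.3% passed the same threshold, 27.2% higher and 28.1% lower, so the share of members called was not above the background. The CPM of the groups did not overlap for 5 of the 8 members, against 66.8% of all miRNAs. Other scalings changed this split in edgeR. When library totals alone were used, 6 members were lower and 0 higher (also 0 higher at an unadjusted p under 0.05), where 46% of all miRNAs were lower and 12.2% higher. Upper-quartile factors gave 4 members lower and 0 higher (1 higher at an unadjusted p under 0.05), where 38.1% of all were lower and 18.8% higher. In the TMM fit 4 members were lower and 1 was higher at an unadjusted p under 0.05, and without MCAO replicate 1, MCAO replicate 2 or MCAO + rTMS replicate 2 the members lower at an adjusted p under 0.05 were 0. The median log2 fold change of the members was -0.49, beside -0.21 for all miRNAs tested. The 8 members together held 1.54%, 1.39% and 1.29% of the counts of the MCAO libraries (replicates 1 to 3) and 0.945%, 0.709% and 0.579% of those of the MCAO + rTMS libraries. Every MCAO + rTMS library was below every MCAO library (exact permutation test, two-sided, p = 0.1, the smallest that 3 against 3 allows). On the TMM scale the members' summed level ranged from 9294 to 12880 CPM in the MCAO group and from 8198 to 10950 CPM in the MCAO + rTMS group, and the groups overlapped.

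**Figure D1:**
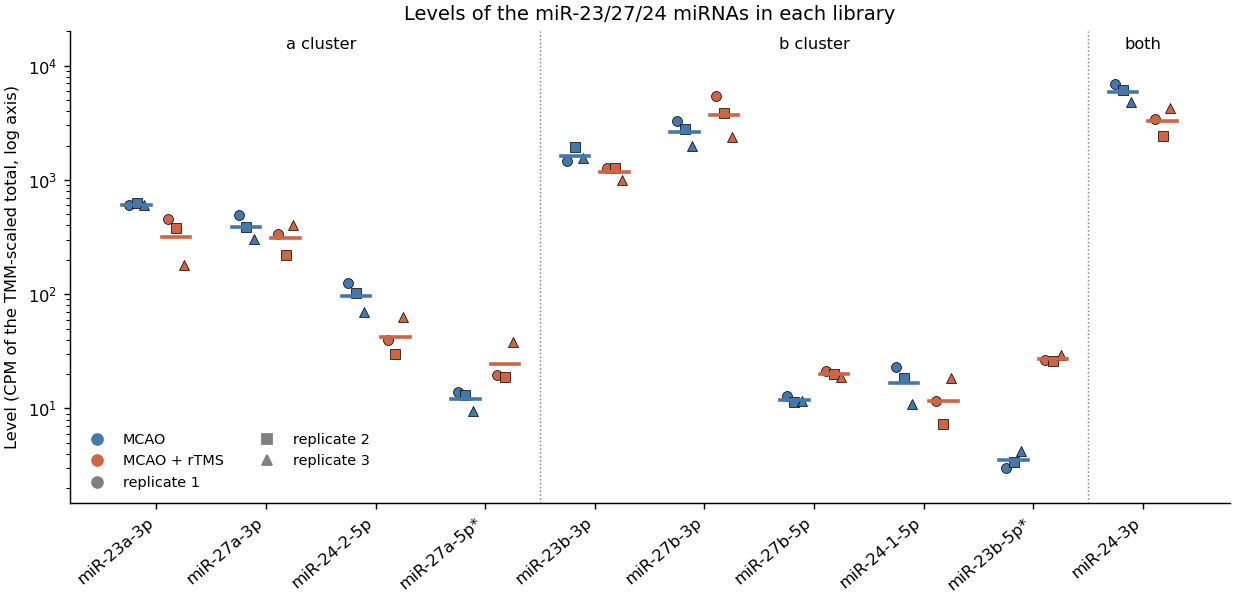
Level of each miRNA in each library, in CPM of the TMM-scaled total on a log axis, with blue for MCAO and orange for MCAO + rTMS, a marker shape for each replicate and a line at the geometric mean of a group; an asterisk marks an arm that is not among the 8 members. miR-24-3p lay highest, at 4766 to 6917 CPM in the MCAO libraries and 2434 to 4244 CPM in the MCAO + rTMS libraries, and the groups of miR-23b-5p lay farthest apart.

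miR-24-3p, a regulator of apoptosis and cell cycle genes, was the most abundant member. In the MCAO libraries (replicates 1 to 3) it stood at 6917, 6166 and 4766 CPM. In those of the MCAO + rTMS group it stood at 3384, 2434 and 4244 CPM. All 3 MCAO libraries were above all 3 MCAO + rTMS libraries, with the narrowest gap between MCAO replicate 3 and MCAO + rTMS replicate 3. The mean level of miR-24-3p fell from 5950 ± 1092 to 3354 ± 905 CPM (± SD over 3 libraries each). This is a log2 fold change of -0.83 with a standard error of 0.25 (edgeR, adjusted p = 0.0274), or of -0.62 once the median of all miRNAs is subtracted. The log2 fold change was negative under all 5 scalings, between -1.47 and -0.76, but the adjusted p rose above 0.05 when MCAO replicate 1 (0.0918), MCAO replicate 2 (0.0876), MCAO + rTMS replicate 1 (0.0667) or MCAO + rTMS replicate 2 (0.110) was left out of the edgeR fit. Its share of the members' reads was 51.2% to 53.7% in the MCAO libraries, and 30.9%, 29.7% and 51.0% in the MCAO + rTMS libraries (replicates 1 to 3). In this respect MCAO + rTMS replicate 3 lay close to the MCAO libraries.

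miR-24-2-5p, the arm that marks the miR-24 hairpin of the a cluster, had the largest decrease of the members. It stood at 126, 102 and 70.5 CPM in the 3 MCAO libraries and at 39.4, 29.8 and 62.6 CPM in the 3 MCAO + rTMS libraries. The groups did not overlap, and MCAO + rTMS replicate 3 was again the nearest to the MCAO group. The level was 2.27-fold lower in the MCAO + rTMS group, a log2 difference of -1.18 with a standard error of 0.33 (edgeR, adjusted p = 0.0200), or of -0.98 relative to the median. Without MCAO replicate 1, MCAO replicate 2, MCAO + rTMS replicate 1 or MCAO + rTMS replicate 2 its adjusted p in the edgeR fit was 0.0682, 0.0705, 0.0607 and 0.0842.

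miR-24-1-5p, the arm that marks the miR-24 hairpin of the b cluster, was rarer, with 86 to 365 counts in a library. Its level was 23.2, 18.6 and 11.0 CPM in MCAO replicates 1 to 3 and 11.6, 7.25 and 18.4 CPM in MCAO + rTMS replicates 1 to 3. The groups overlapped, and the log2 fold change of -0.51 (95% confidence interval -1.43 to 0.42) did not pass the test (adjusted p = 0.305, edgeR). At 86 counts, the 95% exact binomial interval of its share in MCAO + rTMS replicate 2 ran from 5.01 to 7.74 CPM of the unscaled library total, which covers counting error only.

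The miR-23 guides were the next to be compared. miR-23a-3p had 599, 626 and 602 CPM in the MCAO libraries, the tightest values of any member, and 457, 380 and 180 CPM in the MCAO + rTMS libraries. All 3 MCAO + rTMS libraries lay below the MCAO libraries, with replicate 3 the lowest. The log2 fold change of -0.84 (standard error 0.33) had an unadjusted p of 0.0340 and an adjusted p of 0.0581 in edgeR's test, just outside the threshold. It passed in 7 of 17 alternatives, among them DESeq2 (adjusted p = 0.0340) and limma-voom (adjusted p = 0.0427), and did not pass in the other 10, among them RLE factors in edgeR (0.0741) and the two-sample test (0.13), with an adjusted p between 0.0162 and 0.147 over all of them. Without MCAO + rTMS replicate 3 the log2 fold change was -0.51, with an adjusted p of 0.0394 in the edgeR fit.

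miR-23b-3p was more abundant than its a copy, at 1452, 1927 and 1545 CPM in the MCAO group and 1276, 1262 and 1005 CPM in the MCAO + rTMS group. Here too the 3 libraries with rTMS were all below those without. The difference was small, at -0.47 on the log2 scale with a standard error of 0.20 (edgeR, adjusted p = 0.0717), and at -0.27 once the median of all miRNAs is subtracted. With both miR-23 guides summed into a single row, since they differ by 1 base, the log2 fold change was -0.56 and lay between -1.17 and -0.44 in the alternatives.

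The miR-27 guides, which are known for targets in lipid metabolism and angiogenesis, did not pass the test in either cluster. miR-27b-3p, the more abundant of the pair, was at 3263, 2800 and 1982 CPM in MCAO replicates 1 to 3 and at 5422, 3847 and 2394 CPM in MCAO + rTMS replicates 1 to 3. MCAO + rTMS replicates 1 and 2 were above all MCAO libraries, and replicate 3 fell inside the MCAO range. The log2 fold change of 0.54 (95% confidence interval -0.22 to 1.29) did not pass the edgeR test (adjusted p = 0.193). Without MCAO + rTMS replicate 3 it was 0.83, with an adjusted p of 0.0330. With library totals only it was -0.035. After subtraction of the median of all miRNAs it was 0.74 in the TMM fit and 0.77 with library totals only. These values nearly agree by construction.

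miR-27a-3p was at 490, 388 and 307 CPM in the MCAO libraries and 337, 219 and 403 CPM in the MCAO + rTMS libraries. The groups overlapped, with MCAO + rTMS replicate 3 in the middle of the MCAO range, and the log2 fold change of -0.31 (95% confidence interval -0.96 to 0.35) had an adjusted p of 0.387 in the edgeR test.

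miR-27b-5p, the partner strand of miR-27b-3p, was the member that was higher with rTMS. It had 12.7, 11.4 and 11.6 CPM in the MCAO libraries and 21.1, 20.0 and 18.8 CPM in the MCAO + rTMS libraries. The groups were well apart and the SD was 5.99% of the mean without rTMS and 5.96% with it. The level was 1.67-fold higher in the MCAO + rTMS group, a log2 difference of 0.74 with a standard error of 0.18 (edgeR, adjusted p = 0.0110). This call rests on the scaling, since the log2 fold change was 0.12 (adjusted p = 0.663, edgeR) with library totals only. After subtraction of the median the TMM fit gave 0.95 and the fit to library totals 0.92, which nearly agree by construction.

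**Figure D2:**
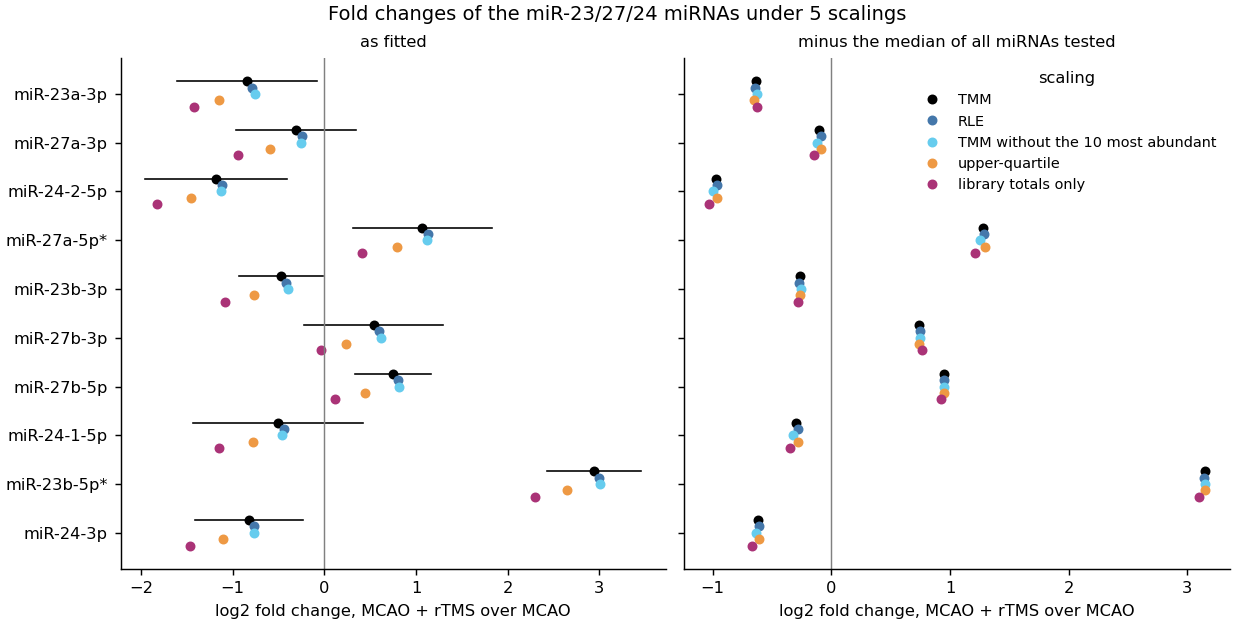
Log2 fold change of MCAO + rTMS over MCAO for each miRNA under 5 scalings of the libraries, as fitted by edgeR (left, with the 95% confidence interval of the TMM fit as a line) and after subtraction of the median over all 452 miRNAs tested (right). As fitted, the values of miR-27b-3p ran from -0.035 to 0.61. Relative to the median they ran from 0.74 to 0.77, as the subtraction removes most of the effect of the scaling by construction.

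The other arms of the hairpins, which lie outside the 8 members, were both higher in the MCAO + rTMS group. miR-23b-5p, the partner strand of miR-23b-3p, was at 2.99, 3.38 and 4.26 CPM in the MCAO libraries and at 26.7, 26.1 and 29.2 CPM in the MCAO + rTMS libraries. Its level was thus 7.68-fold higher with rTMS (2.94 on the log2 scale with a standard error of 0.22, edgeR, adjusted p = 0.00018), the fourth largest increase of the 452 miRNAs, on 41 to 68 counts in a MCAO library. miR-27a-5p was at 14.0, 13.1 and 9.46 CPM in the MCAO libraries and at 19.7, 19.0 and 38.2 CPM in the MCAO + rTMS libraries, where replicate 3 stood high. On the log2 scale it was higher by 1.07 with a standard error of 0.33 (edgeR, adjusted p = 0.0274), and the adjusted p rose above 0.05 when any MCAO library was left out (0.0521 to 0.0792). The call was also lost with upper-quartile factors (log2 fold change 0.79, adjusted p = 0.0758) and with library totals only (0.41, adjusted p = 0.209) in edgeR. Without MCAO + rTMS replicate 3 the log2 fold change of miR-27a-5p was 0.70 (adjusted p = 0.0288, edgeR). For miR-23a-5p no row was found in the table.

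The 3p and 5p arms were next compared within each library, where the ratio of reads does not depend on how the libraries were scaled. Such ratios were formed for 167 pairs of arms in the table and compared between the groups with limma, and 48.5% of the pairs differed with an adjusted p under 0.05, 26.9% with a lower ratio of 3p to 5p under rTMS. For the hairpins of the clusters the 3p arm was the more abundant arm in every library, and 2 of the 5 pairs differed between the groups, both with a lower ratio under rTMS.

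In the Mir23b hairpin there were 485, 570 and 363 reads of the 3p arm for each read of the 5p arm in the MCAO libraries (replicates 1 to 3), and 47.8, 48.4 and 34.5 in the MCAO + rTMS libraries. The groups were far apart, and the ratio was 10.7-fold lower with rTMS (log2 difference -3.42, standard error 0.28, adjusted p = 0.000379, limma). The fitted log2 fold change was -0.47 for the 3p arm and 2.94 for the 5p arm of this hairpin. In the Mir27a hairpin the ratio was 35.0, 29.6 and 32.4 in the MCAO libraries and 17.1, 11.5 and 10.5 in the MCAO + rTMS libraries. The ratio was 2.53-fold lower (log2 difference -1.34, standard error 0.26, adjusted p = 0.00796, limma). With each library left out in turn, both differences passed the threshold.

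In the Mir27b hairpin the ratio was 256, 246 and 170 in the MCAO libraries and 257, 192 and 128 in the MCAO + rTMS libraries. The groups overlapped, and the log2 difference of -0.25 (95% confidence interval -1.10 to 0.59) did not pass the test (adjusted p = 0.561, limma). Whether the arm ratio moved more in one hairpin than in another was tested by dividing the ratio of Mir27a by that of Mir27b in each library. This quotient was 0.137, 0.120 and 0.191 in the MCAO libraries and 0.0666, 0.0599 and 0.0827 in the MCAO + rTMS libraries. There was no overlap, at the smallest p that the exact permutation test of 3 against 3 allows (p = 0.1). The same held for Mir23b over Mir27b (log2 difference -3.18) and Mir23b over Mir27a (-2.09). Quotients of other hairpins were not compared, so the lack of overlap cannot be called more than the background.

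The shared miR-24-3p was set against each of its 5p partners. There were 298, 332 and 432 reads of miR-24-3p for each read of miR-24-1-5p in the MCAO libraries and 292, 336 and 231 in the MCAO + rTMS libraries, with a log2 difference of -0.31 (95% confidence interval -0.95 to 0.34). For miR-24-2-5p the ratio was 55.0, 60.2 and 67.6 in the MCAO libraries and 85.8, 81.8 and 67.8 in the MCAO + rTMS libraries. MCAO replicate 3 and MCAO + rTMS replicate 3 nearly coincided there, and the log2 difference of 0.36 (95% confidence interval -0.17 to 0.90) did not pass the test. The adjusted p was 0.386 and 0.229, respectively (limma).

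**Figure D3:**
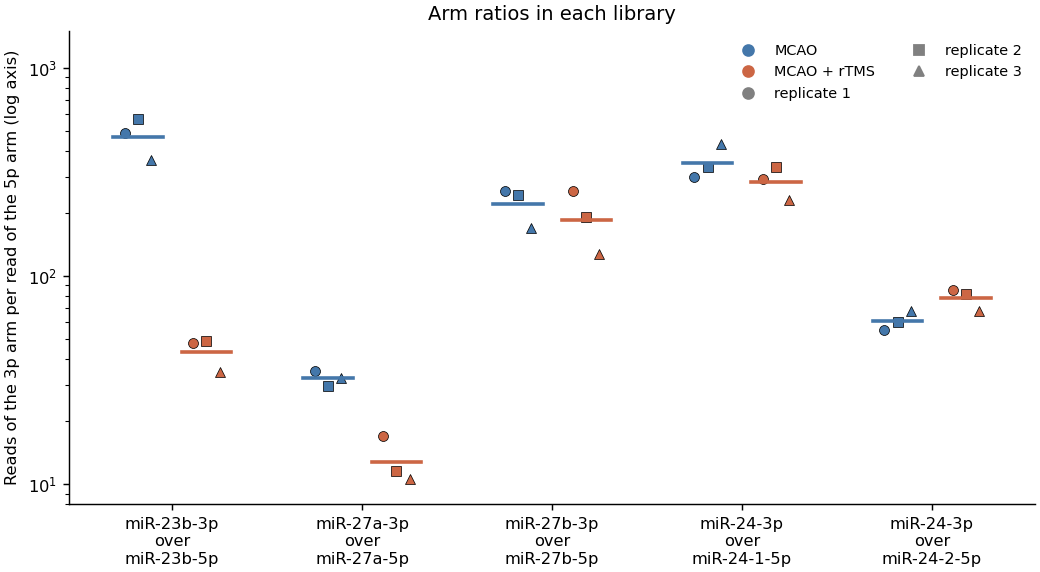
Reads of the 3p arm for each read of the 5p arm in each library, on a log axis, with blue for MCAO, orange for MCAO + rTMS and a line at the geometric mean of a group. The ratio of miR-23b-3p to miR-23b-5p was 363 to 570 in the MCAO libraries and 34.5 to 48.4 in the MCAO + rTMS libraries, while those of the Mir27b hairpin overlapped.

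The a and b clusters were compared by the ratio of matching arms within each library. Among 156 such pairs of related miRNAs in the table, 48.1% differed between the groups with an adjusted p under 0.05 in limma, and of the 4 pairs in these clusters 1 did. The pair was that of the miR-24 5p arms, which are the products that tell the hairpins of miR-24 apart. There were 0.185, 0.181 and 0.156 reads of miR-24-1-5p (b cluster) for each read of miR-24-2-5p (a cluster) in the MCAO libraries, and 0.294, 0.244 and 0.293 in the MCAO + rTMS libraries. The ratio of b to a was 1.59-fold higher with rTMS (log2 difference 0.67, standard error 0.16, adjusted p = 0.0191, limma). The groups did not overlap, but the adjusted p was between 0.0518 and 0.0682 when any of the libraries other than MCAO + rTMS replicate 3 was left out.

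Between the miR-27 guides, the a over b ratio was 0.150, 0.139 and 0.155 in the MCAO libraries and 0.0621, 0.0569 and 0.168 in the MCAO + rTMS libraries. MCAO + rTMS replicates 1 and 2 were below all MCAO libraries, and replicate 3 was above all of them. The log2 difference was therefore -0.81 with a wide 95% confidence interval of -1.94 to 0.31 (adjusted p = 0.184, limma). Without MCAO + rTMS replicate 3 it was -1.31 (adjusted p = 0.00530, limma), so this ratio is decided by a single library.

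For the miR-23 guides the a over b ratio was 0.413, 0.325 and 0.389 in the MCAO libraries and 0.358, 0.301 and 0.179 in the MCAO + rTMS libraries. Here MCAO + rTMS replicate 3 stood low rather than high. The log2 difference of -0.48 (95% confidence interval -1.22 to 0.27, adjusted p = 0.232, limma) did not pass the test, and it was -0.19 without that library. The ratio of miR-27a-5p to miR-27b-5p was near 1 in 5 libraries, from 0.812 to 1.15, and 2.04 in MCAO + rTMS replicate 3.

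Summed over the members assigned to a single cluster, the 3 of the a cluster held 0.146%, 0.129% and 0.136% of the counts in the MCAO libraries and 0.0719%, 0.0543% and 0.0449% in the MCAO + rTMS libraries. The 4 of the b cluster held 0.569%, 0.549% and 0.495% in the MCAO libraries and 0.581%, 0.444% and 0.239% in the MCAO + rTMS libraries. As a share of all counts, the a cluster was lower in every MCAO + rTMS library, whereas the b cluster overlapped between the groups. The difference of the b cluster in this share, -0.12 percentage points, was -0.025 without MCAO + rTMS replicate 3 and -0.20 without MCAO + rTMS replicate 1. With library totals only, the median log2 fold change of all miRNAs tested was itself -0.80. In percent of the TMM-scaled total the difference was -0.040 for the a cluster and 0.075 for the b cluster. There were 3.63 to 4.26 reads of the b cluster members for each read of the a cluster members in the MCAO group and 8.08, 8.17 and 5.32 in the MCAO + rTMS libraries, without overlap (exact permutation test, two-sided, p = 0.1, the smallest possible).

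**Figure D4:**
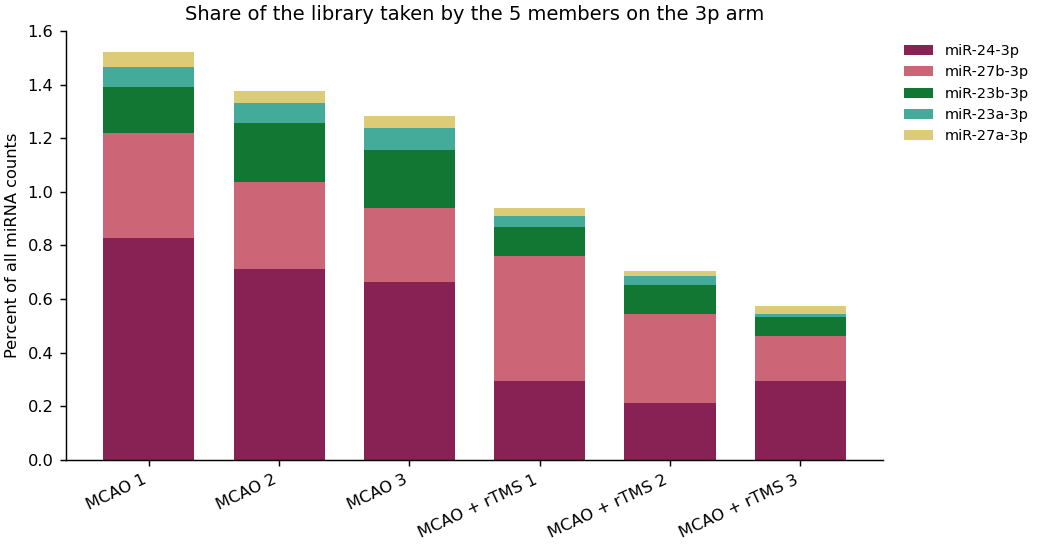
Percent of all miRNA counts taken by the 5 members on the 3p arm in each library, stacked from 0. The section of miR-24-3p was 0.664% to 0.829% in the MCAO libraries and 0.210% to 0.295% in the MCAO + rTMS libraries, while that of miR-27b-3p was 0.276% to 0.391% in the MCAO libraries and 0.468%, 0.333% and 0.167% in the MCAO + rTMS libraries.

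Guides of the same cluster are cut from neighbouring hairpins, and 6 ratios between 3p guides were compared between the groups. Those with miR-24-3p, whose reads cannot be assigned to either cluster, are not ratios within a single cluster. For 3 of the 6 the groups did not overlap (exact permutation test, p = 0.1, or 0.2 after Benjamini-Hochberg adjustment over the 6). The share without overlap among ratios of other miRNAs was not tested, so these 3 cannot be called more than the background. Among the levels of all 452 miRNAs, 66.8% did not overlap between the groups. In the b cluster there were 2.25, 1.45 and 1.28 reads of miR-27b-3p for each read of miR-23b-3p in the MCAO libraries and 4.25, 3.05 and 2.38 in the MCAO + rTMS libraries. The 3 libraries with rTMS were all above those without (log2 difference 0.96, exact permutation p = 0.1). In the a cluster the ratio of miR-27a-3p to miR-23a-3p was 0.819, 0.620 and 0.510 in the MCAO libraries and 0.736, 0.576 and 2.24 in the MCAO + rTMS libraries. The groups overlapped there (exact permutation p = 0.5), with MCAO + rTMS replicate 3 far from the rest. The ratio of miR-24-3p to miR-27b-3p was 2.12, 2.20 and 2.41 in the MCAO libraries, and 0.624, 0.633 and 1.77 in the MCAO + rTMS libraries (exact permutation p = 0.1). In MCAO + rTMS replicates 1 and 2 miR-27b-3p thus outnumbered miR-24-3p, which was not so in any other library. There were 14.1, 15.9 and 15.5 reads of miR-24-3p for each read of miR-27a-3p in the MCAO libraries and 10.1, 11.1 and 10.5 in the MCAO + rTMS libraries, again without overlap (exact permutation p = 0.1). Against the miR-23 guides the groups overlapped, with a log2 difference of the ratio of -0.37 for miR-24-3p to miR-23b-3p (exact permutation p = 0.4) and of 0.10 for miR-24-3p to miR-23a-3p (exact permutation p = 1).

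**Figure D5:**
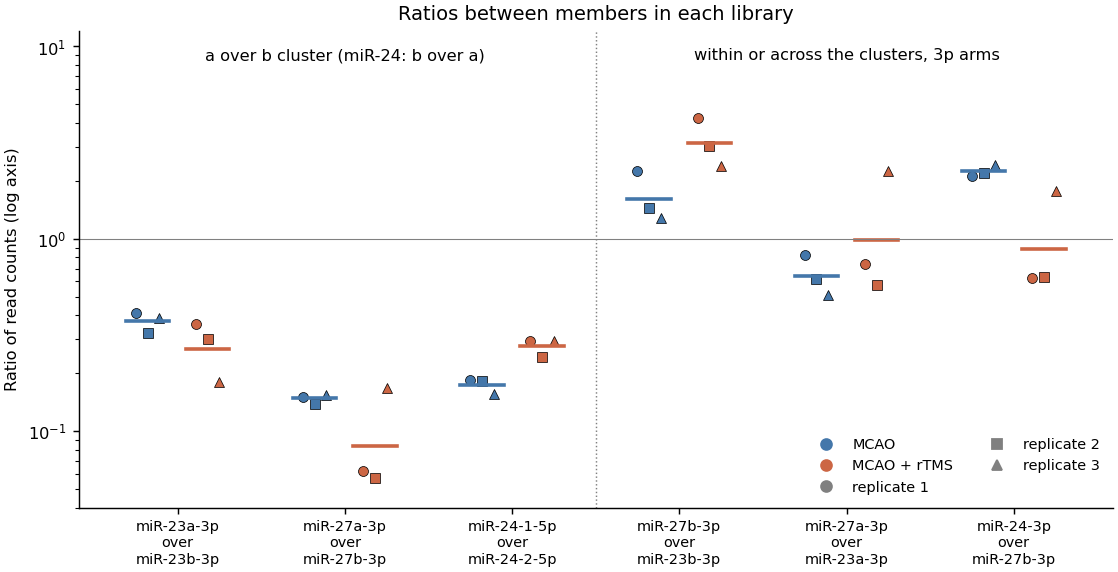
Ratio of read counts between members in each library, on a log axis with a line at a ratio of 1; the left part sets the a against the b cluster (for miR-24 the b over the a arm) and the right part sets guides of 3p arms against each other. MCAO + rTMS replicate 3, the orange triangle, stood apart from its group in the ratio of miR-27a-3p to miR-27b-3p (0.168) and of miR-27a-3p to miR-23a-3p (2.24).

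For each member on the 3p arm, the 3 tested miRNAs with the most similar pattern over the 6 libraries were sought among those with a mean count of at least 200, by the root mean square difference of centred log2 levels. The nearest were miR-22-5p (0.0806) and miR-376b-5p (0.0904) for miR-24-3p, miR-210-3p (0.0831) for miR-23b-3p, miR-3085 (0.104) for miR-23a-3p, miR-411-5p (0.110) for miR-27a-3p and miR-181a-1-3p (0.174) for miR-27b-3p. None of the 3 nearest to any of these guides was another member of the clusters.

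Marker miRNAs of the cell types of the cortex were counted in the same edgeR fit, in which 27.2% of all miRNAs were higher with rTMS and 28.1% lower. Of the 4 miRNAs listed for astrocytes, which other cells also express, miR-29a-3p, miR-29b-3p and miR-29c-3p were lower with rTMS and miR-26a-5p did not pass the test, and the summed level was 27800 to 33210 CPM in the MCAO libraries and 19970 to 24350 CPM in the MCAO + rTMS libraries. Of the 6 myeloid miRNAs 4 were lower (miR-142-3p, miR-142-5p, miR-155-5p and miR-223-3p), and the summed level was 698 to 719 CPM against 315 to 551 CPM. Most of that sum was miR-146a-5p, at a mean of 618 CPM without rTMS and 414 CPM with it, which did not pass the test (adjusted p = 0.0779, edgeR). miR-223-5p had a log2 fold change of 0.072 (adjusted p = 0.925, edgeR). Of those called, miR-142-3p, miR-142-5p and miR-223-3p were rare, at means of 4.49, 8.40 and 11.7 CPM without rTMS. Of these lists, under the other 4 scalings, 3 to 4 of the astrocyte and 3 to 5 of the myeloid miRNAs were lower.

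Of the 5 endothelial and mural miRNAs, miR-126a-5p was lower, miR-143-3p was higher (but not with upper-quartile factors, adjusted p = 0.0517, or with library totals only, 0.182), and the summed level overlapped, at 4964 to 9793 CPM and 6378 to 9611 CPM. miR-126a-3p, with a log2 fold change of -0.84, did not pass (adjusted p = 0.0539, edgeR). It was called lower in edgeR with upper-quartile factors (adjusted p = 0.0184) and library totals only (0.00293), but not with RLE factors (0.0664). Both miR-145 arms did not pass. Of the 3 tested miRNAs of oligodendrocytes 2 were higher, with a summed level of 788 to 1062 CPM against 1275 to 2576 CPM. With library totals only both calls were lost (adjusted p = 0.148 for miR-219a-2-3p and 0.647 for miR-338-5p, edgeR). With upper-quartile factors that of miR-338-5p was lost (adjusted p = 0.112, edgeR). The other tested miRNA, miR-338-3p, had a log2 fold change of -0.73 and did not pass (adjusted p = 0.0596, edgeR). It was called lower in edgeR with upper-quartile factors (-1.02, adjusted p = 0.0159) and with library totals only (-1.32, adjusted p = 0.00662), but not with RLE factors (0.0677). The red blood cell miRNAs went both ways, as miR-486 was higher and miR-451-5p was lower. In the list of 5 neuronal miRNAs 1 was higher and 2 were lower. The summed level of the neuronal list was 179400 to 243900 CPM against 288900 to 461300 CPM, of which miR-128-3p alone made up a mean of 212040 CPM without rTMS and 341030 CPM with it. The other 4 neuronal miRNAs had log2 fold changes of -0.43 to -2.16, and with library totals only 4 of the 5 were lower and miR-128-3p had a log2 fold change of 0.039 (adjusted p = 0.825, edgeR). The part of such shifts in the changes of the miR-23/27/24 miRNAs was not tested.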

How the data were processed

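The table deposited by the authors holds raw counts, not normalized, of 493 mature miRNAs in 6 libraries. A separate selection of 73 of these miRNAs, 1 of them a member, repeats the counts of the full table and was not used. The submitters' processing notes name bcl2fastq, BWA, DESeq2 and rn6. The miRNA database and how reads with several matches were counted are not given in the sources used here. No count from 1 to 9 occurs, and 286 of the 2958 counts are 0, none of them in a member. Total counts were 10492610 to 15411620 per library. The p-values of edgeR and limma set the difference between the groups against the spread between the libraries within them. Those of the exact permutation test come from reassigning the libraries to the groups.

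The analysis used edgeR 4.0.16 in R 4.3.3 (filterByExpr, TMM factors, quasi-likelihood test without a block), with Benjamini-Hochberg adjustment over 452 miRNAs. The standard error came from the F statistic. Log2 ratios of arms and of related miRNAs, with 0.5 added to each count, were compared with limma 3.58.1 over all such pairs with unequal counts. Alternatives were DESeq2 1.42.0, limma-voom, a two-sample test (a kind of test the study's methods name, on values they do not state) run here on log2(CPM + 1) with adjusted p-values, other scalings and filters, a replicate block and the omission of each library. In simulated data edgeR called 55.8% of 86 miRNAs changed by 1 on the log2 scale, of 434 fitted. For a change of 1 in a ratio, limma called 31.7% of 41 pairs of arms and 29.4% of 34 pairs of related miRNAs. Each miRNA was drawn independently there, so the rates for ratios may not hold where the miRNAs of a pair vary together. A pair that did not pass may still differ. Figures were drawn in Python 3.11.15 with matplotlib 3.10.9. The members and lists were chosen with earlier results of these data known. Named by rule were the members, the other arms of their hairpins and, for each 3p member, the 3 miRNAs nearest in pattern with a mean count of at least 200; the marker miRNAs come from a separate list. Ratios between the 3p guides, quotients of arm ratios and the scalings of the marker lists were added after the counts had been seen. Sequences were matched by name in RefSeq for all 10 miRNAs.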

Additional observations from a re-analysis of the deposited data

How the results depend on the processing

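All 8 members were refitted under 17 alternatives. Leaving the members out of the scaling was chosen after seeing the data. The direction of a member's log2 fold change held in all of them, apart from miR-27b-3p with library totals only (-0.035). With library totals only the log2 fold change was -1.43 for miR-23a-3p, -1.08 for miR-23b-3p, -1.15 for miR-24-1-5p, -0.95 for miR-27a-3p, 0.12 for miR-27b-5p, -1.17 for the summed miR-23a/b-3p and -0.12 for the summed miR-27a/b-3p (0.46 with TMM factors), with 6 members lower and 0 higher. Upper-quartile factors gave -1.15 for miR-23a-3p, -0.77 for miR-23b-3p, 0.45 for miR-27b-5p and -0.92 for the summed miR-23a/b-3p, with 4 lower and 0 higher. These moves go with the shift of the median of all miRNAs. For miR-23a-3p and the summed miR-23a/b-3p, which passed the threshold in these fits as well, it was -0.79 and -0.52 with DESeq2, -0.95 and -0.57 with limma-voom, and -0.89 and -0.61 with a count of at least 10 in every library. The two-sample test called 0 members lower (3 at an unadjusted p under 0.05), with -0.85 for miR-24-3p and -1.19 for miR-24-2-5p. Its adjusted p was 0.0750 and 0.0725.

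The replicate numbers were taken from the sample titles, and the main fit used no pairing. Deviations of libraries with the same number correlated at 0.198, -0.119 and -0.114 over 452 miRNAs, and not every library correlated best with its own number. With 3 libraries in a group these values cannot decide whether libraries of the same number shared a batch, so a fit with a block is also given. With the replicate block in edgeR 0 members were lower (3 at an unadjusted p under 0.05), with -0.85 for miR-24-3p and -1.22 for miR-24-2-5p, and 180 miRNAs were called in place of 250.

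With each library left out in turn, the log2 fold change lay between -1.12 and -0.51 for miR-23a-3p, between -0.99 and -0.61 for miR-24-3p, between -1.49 and -0.94 for miR-24-2-5p, between -0.86 and -0.21 for miR-24-1-5p, between -0.47 and -0.068 for miR-27a-3p, between 0.22 and 0.83 for miR-27b-3p and between 0.11 and 0.65 for the summed miR-27a/b-3p. Between 0 and 3 members were then lower and between 1 and 2 higher in edgeR (1 to 3 lower at an unadjusted p under 0.05). The log2 difference of the arm ratio lay between -0.49 and 0.013 for Mir27b and between -0.43 and -0.16 for miR-24-3p over miR-24-1-5p, and that of the ratio of related arms between 0.60 and 0.76 for miR-24-1-5p over miR-24-2-5p, between -0.69 and -0.19 for miR-23a-3p over miR-23b-3p, between -1.31 and -0.53 for miR-27a-3p over miR-27b-3p and between -0.10 and 0.46 for miR-27a-5p over miR-27b-5p. The cause of these moves was not tested.

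In percent of the counts, all 8 members together differed by -0.67 and the a cluster by -0.080. Without the 10 most abundant miRNAs in the total the differences were -1.75 and -0.23, from a smaller denominator. In percent of the TMM-scaled total they were -0.22 and -0.040, and that of the b cluster was 0.075 instead of -0.12, which lay between -0.20 and -0.025 with each library left out. Depth limits the rarest products, miR-23b-5p with 41 to 68 counts in the MCAO libraries and miR-24-1-5p with 86 to 365 counts.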
